A study of Mus musculus with 4 samples.

Results

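Aminoacyl-tRNA synthetases are the enzymes that load each amino acid onto its matching tRNA, and thereby supply both cytosolic and mitochondrial protein synthesis. The values below describe the 36 synthetase genes found by symbol among the 22552 symbols of the series, of which 20 encode the cytosolic set and 16, whose symbols end in 2, the mitochondrial set. Membership followed a list of symbols with no cutoff on measured values, but the list was chosen with earlier results of these data known. All 36 were present in each table on a single line. The cells were mouse spermatogonial stem cells, which renew themselves and give rise to sperm, from testes of male DBA/C57 F1 mice aged 5 to 7 days. The cells carried an inducible knockout of the microRNA miR-202, although all 4 libraries bear the genotype label wild type. After a night on laminin, 2 cultures were kept with doxycycline at 10 µg/ml for 2 days, and 2 were kept without it. The cultures of each condition stem from 2 single-cell clones, iKO-SC-1 and iKO-SC-2.

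Most cytosolic synthetases charge 1 amino acid and some of them sit together in a multi-synthetase complex, held by scaffold proteins. Mitochondria import their own set, encoded by separate nuclear genes, to charge the tRNAs of the mitochondrial genome. The genes for glycine and lysine, Gars and Kars, each supply both compartments. Doxycycline, the drug that induces the knockout here, is also an antibiotic that can slow translation on mitochondrial ribosomes. No group received the drug without carrying the inducible knockout, so an effect of the drug and an effect of losing miR-202 cannot be told apart.

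The deposited values are FPKM, fragments scaled for transcript length and library size, so levels can be compared between genes. Summed FPKM was 313981 and 320243 with doxycycline and 309153 and 314507 without it. Depth in reads is unknown. Steps among the lowest values put the depths of doxycycline replicate 2, untreated replicate 1 and untreated replicate 2 at 1.22, 1.33 and 1.56 times that of doxycycline replicate 1. Mir202 itself was listed at 0 in all 4 libraries, which checks neither the knockout nor the labels. All 14 listed markers of undifferentiated spermatogonia were above 1 FPKM in each library, Dazl highest. None of the 14 passed the limma test used here without a block for replicate number, but 3 did with it, against 3.7% of all tested genes. Thy1 was higher with doxycycline (log2 change 0.30, limma adjusted p = 0.0312), and Nanos3 (-0.30, adjusted p = 0.0413) and Utf1 (-0.30, adjusted p = 0.0479) were lower. All 8 markers of fibroblast feeder cells were also above 1 FPKM in each library. Their summed levels were 96.7 and 84.0 FPKM with doxycycline and 94.2 and 71.5 FPKM without. Of 7 Sertoli, 7 macrophage and blood, and 6 Leydig and peritubular markers, 2, 1 and 1 exceeded 1 FPKM in each library, and Hbb-b1 and Hsd3b1 were at 0 throughout. The part of these markers' cells in the results below was not tested. In bulk RNA, fewer cells of a type and less RNA per cell cannot be told apart.

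The mature arms of miR-202 are shown because microRNAs act mainly through matches to their seed in 3' UTRs. Capitals mark the seed, bases 2 to 8 (RefSeq, GRCm38.p6, chromosome 7, minus strand).
mmu-miR-202-3p: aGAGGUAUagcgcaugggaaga
mmu-miR-202-5p: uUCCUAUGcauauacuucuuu

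Seed matches were present in a minority of the synthetase genes. A match was a heptamer that pairs with bases 2 to 8, or a pairing of bases 2 to 7 with an A next to it. The longest GENCODE M21 3' UTR of each gene was searched, over transcripts of any type with an annotated stop codon. That transcript need not be the main mRNA of the gene, so a match may lie outside the 3' UTR of the main mRNA. Matches stood in 10 of the 36 genes (27.8%), against 27.3% of the tested genes with a 3' UTR. The 3p arm had a match in 4 cytosolic genes (Aars, Iars, Qars and Wars) and in 2 mitochondrial genes (Mars2 and Nars2). The 5p arm had one in 3 cytosolic genes (Aars, Dars and Tars) and in 3 mitochondrial genes (Mars2, Tars2 and Wars2). Examples are given 5' to 3' with the matched heptamer in capitals, chosen to show Aars, the cytosolic gene with a match to both arms, and 1 further gene for each arm.
Aars, 3p arm: gtccagctATACCTCgccgttct
Aars, 5p arm: agtaccagCATAGGAgtccagct
Wars, 3p arm: agaagccgTACCTCAgggaaagc
Tars, 5p arm: gtgtgctgCATAGGAatgagctc

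Changes were small with and without a match. The 9 tested genes that carry one had log2 changes from -0.11 for Wars to 0.05 for Qars, with a median of -0.02. The 26 tested synthetase genes without a match had a median of -0.03. Over all tested genes the medians were -0.01 with a match and 0.0025 without.

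Cytosolic synthetase mRNAs ranged from a mean of 15.0 FPKM for Wars to 106 FPKM for Gars. Gars, for glycyl-tRNA synthetase, was the highest of the 36, at 103 and 108 FPKM with doxycycline and 104 and 110 FPKM without. Rars, Mars and Eprs followed, for arginine, methionine, and glutamate with proline. Of the 20 cytosolic genes, 19 exceeded 20 FPKM in each library. Wars, for tryptophan, was the lowest, at 14.2 and 14.6 FPKM with doxycycline and 16.4 and 14.9 FPKM without.

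Mitochondrial synthetase mRNAs ranged from a mean of 0.774 FPKM for Wars2 to 68.1 FPKM for Lars2. The summed FPKM of the 16 genes was 255 and 246 with doxycycline and 258 and 265 without. The cytosolic sum was 1149 and 1160 with doxycycline and 1148 and 1167 without. The cytosolic sum was thus 4.51 and 4.71 times the mitochondrial sum with doxycycline, and 4.45 and 4.40 times without. Lars2, for mitochondrial leucyl-tRNA synthetase, was the highest of its set, and only Iars2, Sars2 and Fars2 besides it exceeded 20 FPKM in each library. Wars2, for mitochondrial tryptophanyl-tRNA synthetase, was the lowest of all 36, at 0.760 and 0.598 FPKM with doxycycline and 0.830 and 0.906 FPKM without. Both doxycycline values lay below both untreated values, and Wars2 was the 1 gene of the 36 that missed the filter of a mean of 1 FPKM and was not tested.

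**Figure D1:**
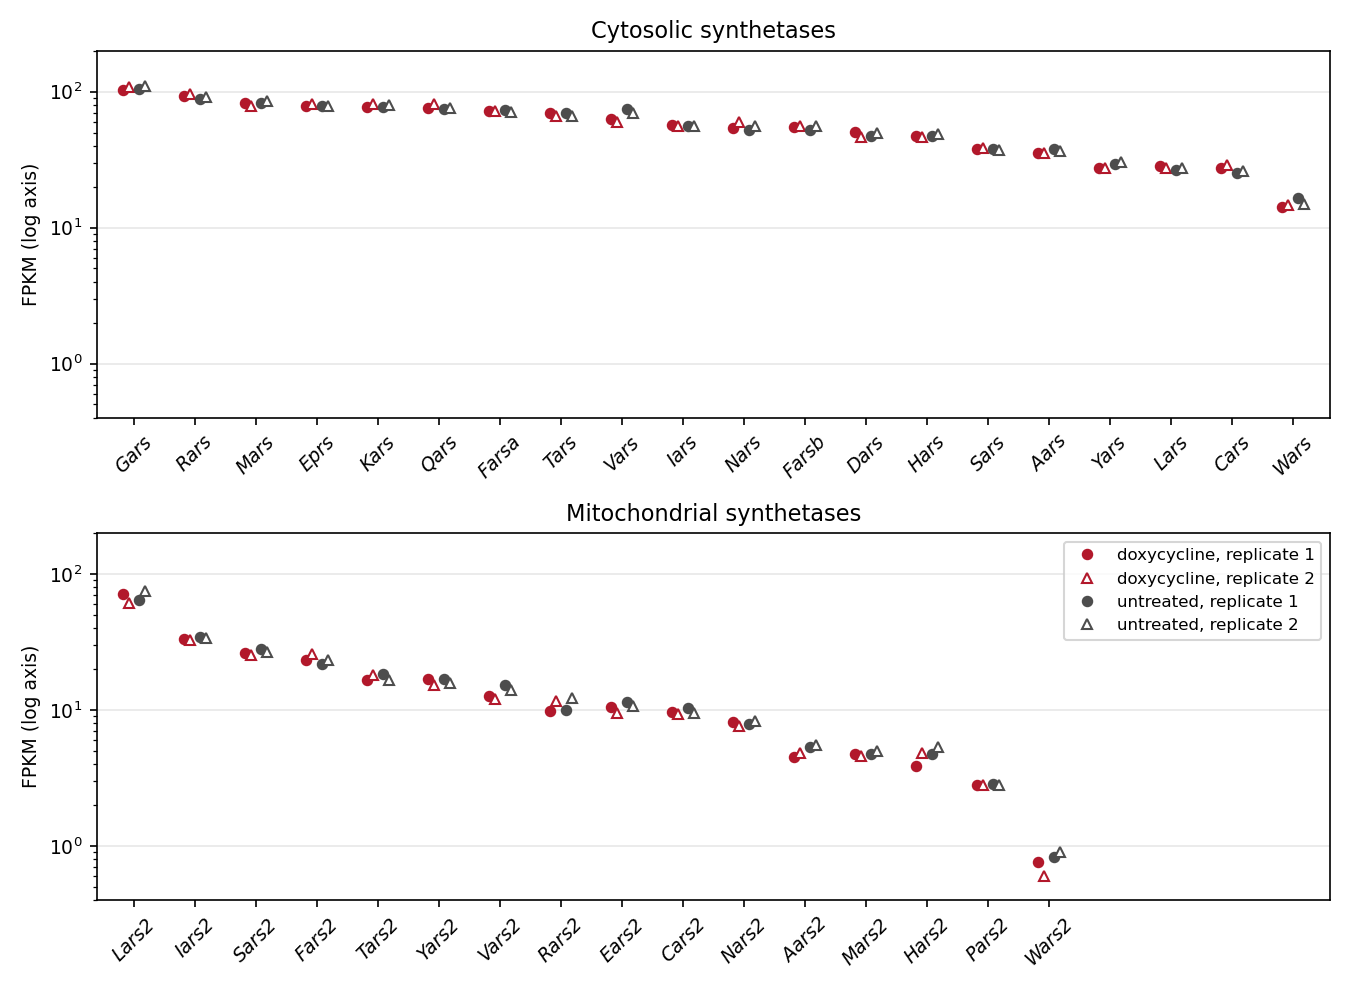
FPKM (log axis) of the 20 cytosolic and 16 mitochondrial synthetase genes in each library, ordered by mean level. Filled circles are replicate 1 and open triangles replicate 2. Gars stands above 100 FPKM in each library and Wars2 below 1 FPKM, and doxycycline and untreated points of most genes lie close together.

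Set against its partner for the same amino acid, the cytosolic gene was the higher of the 2 in 16 of 17 gene pairs in each library. The proline and glutamate enzymes are counted as pairs of Eprs with Pars2 and with Ears2, and Fars2 is paired with both subunits of the cytosolic phenylalanine enzyme, Farsa and Farsb. The widest ratio was that of Eprs to Pars2, at 28.0 and 28.6 with doxycycline and 27.3 and 27.9 without. Sars and Sars2, for serine, were nearest to parity, at 1.43 and 1.53 with doxycycline and 1.34 and 1.39 without.

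Leucine was the exception. Lars2 stood at 71.0 and 61.6 FPKM with doxycycline and 64.7 and 75.1 FPKM without, whereas Lars stood at 28.5 and 27.3 FPKM with doxycycline and 26.3 and 27.6 FPKM without. The ratio of Lars to Lars2 was 0.401 and 0.443 with doxycycline and 0.407 and 0.368 without. Lars2 also moved in opposite directions in the same-numbered pairs, by 0.13 on the log2 scale in pair 1 and by -0.28 in pair 2, and its groups overlapped. Without untreated replicate 2 or without doxycycline replicate 2 its log2 change was above 0. Over all 4 libraries it was -0.07 ± 0.09 (SE; limma adjusted p = 0.732).

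**Figure D2:**
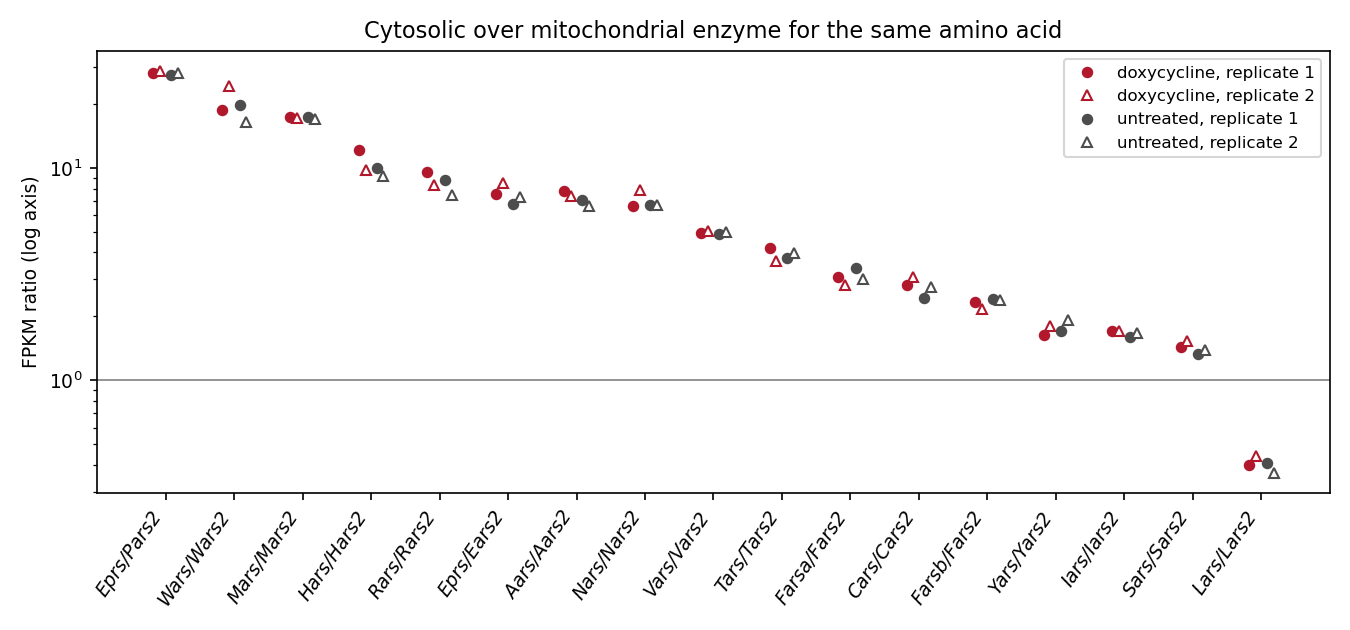
Ratio of the FPKM of the cytosolic to the mitochondrial gene for the same amino acid (log axis) in each library. The grey line marks equal FPKM, and Lars/Lars2, between 0.368 and 0.443, is the only pair below it.

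Doxycycline left the levels of most synthetase genes within a narrow band. The test was limma on log2(FPKM + 1), for genes averaging 1 FPKM or more, where changes of low genes are understated, with Benjamini-Hochberg adjustment over all 11924 tested genes and a threshold of 0.05. None of the 35 tested synthetase genes passed, against 0.277% of all tested genes. At an unadjusted p under 0.05 there were 5, namely Vars, Cars and Yars of the cytosolic set and Vars2 and Aars2 of the mitochondrial set, against 15.1% of all tested genes. With the replicate number as a block, 1 of the 35 passed (Vars, lower), against 3.7% of all tested genes in either direction and 0.973% lower, and 8 had an unadjusted p under 0.05, against 22.4% of all tested genes. The groups did not overlap for 16 of the 35, against 48.4% of all tested genes. These shares lie near or below those of all genes, apart from the single call with the block, which is 1 gene. The log2 change lay within 0.1 of 0 for 26 of the 35. For 26 the whole 95% interval lay within 0.25 of 0 on that scale, so the data bound these changes but do not show them to be absent.

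**Figure D3:**
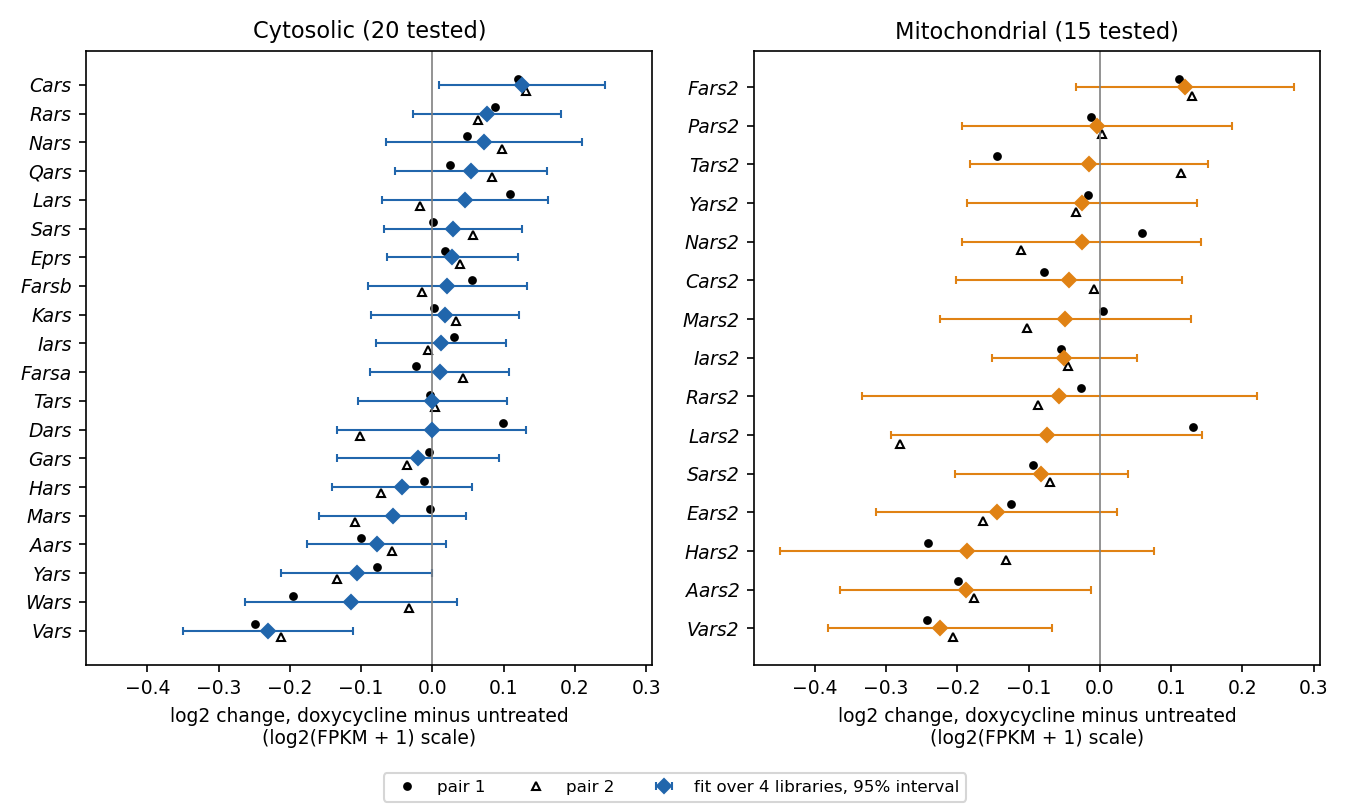
Log2 change with doxycycline (doxycycline minus untreated, log2(FPKM + 1) scale) of each tested gene, as diamonds with 95% intervals from the fit over 4 libraries, with the change in each same-numbered pair beside it. Changes run from -0.23 for Vars to 0.13 for Cars, and 14 of the 15 mitochondrial diamonds lie below 0.

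Over the 4 libraries, the valine enzyme genes had the most negative log2 change of the tested genes in each compartment. Vars, for cytosolic valyl-tRNA synthetase, was at 62.7 and 60.0 FPKM with doxycycline and 74.7 and 69.7 FPKM without. Both doxycycline values lay below both untreated values. Its log2 change was -0.23 ± 0.05 (SE), or 0.850 of the untreated mean, which missed the threshold without the block (limma adjusted p = 0.149) and passed with it (adjusted p = 0.0215). The deposited bounds of Vars in doxycycline replicate 1 ran from 61.1 to 64.4 FPKM. Its locus is chromosome 17, 35137852 to 35153274 (mm9).

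Vars2 encodes the mitochondrial valyl-tRNA synthetase. It was at 12.7 and 12.0 FPKM with doxycycline and 15.2 and 13.9 FPKM without, again without overlap. Its log2 change was -0.22 ± 0.06 (SE; limma adjusted p = 0.217, and 0.0586 with the block). Its place in the order rests on all 4 libraries, since without doxycycline replicate 2 its log2 change was -0.18, against -0.31 for Hars2 and -0.22 for Aars2. The untested Wars2 had the lower ratio of mean FPKM, at 0.783 of the untreated mean against 0.846 for Vars2. The ratio of Vars to Vars2 stayed between 4.91 and 5.02 in the 4 libraries. Vars2 lies on the same chromosome, at 35792580 to 35804537 (mm9), 639.3 kb beyond Vars.

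Among the other cytosolic genes, Cars, for cysteinyl-tRNA synthetase, had the most positive change. It was at 27.3 and 28.7 FPKM with doxycycline and 25.1 and 26.1 FPKM without, with no overlap between groups. Its log2 change was 0.13 ± 0.05 (SE; limma adjusted p = 0.307, and 0.137 with the block). Its mitochondrial partner Cars2 was at 9.72 and 9.41 FPKM with doxycycline and 10.3 and 9.46 FPKM without, with groups that overlapped.

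Yars and Wars, for tyrosine and tryptophan, had the most negative changes after Vars. Yars was at 27.6 and 27.6 FPKM with doxycycline and 29.2 and 30.4 FPKM without, a log2 change of -0.11 ± 0.04 (SE; limma adjusted p = 0.330). Wars, a gene also known to be induced by interferon, had a log2 change of -0.11 ± 0.06 (SE; limma adjusted p = 0.431), with -0.20 in pair 1 and -0.03 in pair 2. Without untreated replicate 1 the Wars change was -0.05, and without untreated replicate 2 it was -0.18. Gars, the most abundant, had a log2 change of -0.02 ± 0.05 (SE; limma adjusted p = 0.870). Neither Yars nor Wars showed an overlap between groups, whereas those of Gars did overlap.

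The remaining 15 cytosolic genes had log2 changes between -0.08 for Aars and 0.08 for Rars. Dars, for aspartate, and Tars are named after their values were seen. Dars moved by 0.10 in pair 1 and by -0.10 in pair 2. Tars, for threonine, had the smallest change of the set, at 69.3 and 66.7 FPKM with doxycycline and 69.5 and 66.6 FPKM without. Here the libraries of each pair were nearly equal, and the difference between replicates exceeded that between treatments.

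Most mitochondrial synthetase genes had slightly lower values with doxycycline. Of the 15 tested, 14 had a log2 change below 0, against 50.7% of all tested genes, and 10 to 12 did when single libraries were left out. In this set 9 were lower in both same-numbered pairs, against 34% of all tested genes. Among the 9103 tested genes in the FPKM range of the mitochondrial set, 36.5% were lower in both pairs. The median log2 change was -0.05, with -0.06 in pair 1 and -0.09 in pair 2, against a median of -0.0022 over all tested genes. The 15 include no gene past the adjusted threshold in either fit, and 2 had an unadjusted p under 0.05 without the block and 5 with it. Both doxycycline values lay below both untreated values for 5 of the 15, against 24.9% of all tested genes, and above them for 1, against 23.5%.

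Aars2, the mitochondrial alanyl-tRNA synthetase gene, was among those without overlap. It was at 4.52 and 4.79 FPKM with doxycycline and 5.33 and 5.54 FPKM without, a log2 change of -0.19 ± 0.07 (SE; limma adjusted p = 0.308, and 0.162 with the block). Ears2, which charges glutamate in mitochondria, was at 10.5 and 9.50 FPKM with doxycycline and 11.5 and 10.8 FPKM without, a log2 change of -0.14 ± 0.07 (SE; limma adjusted p = 0.387). Both doxycycline values of Ears2 were below both untreated values, and its log2 change was -0.08 without doxycycline replicate 2. Iars2 and Sars2 were the other genes besides Vars2 with this pattern, at log2 changes of -0.05 and -0.08.

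Hars2, for mitochondrial histidyl-tRNA synthetase, had one of the larger changes but overlapping groups. It was at 3.86 and 4.79 FPKM with doxycycline and 4.74 and 5.35 FPKM without, a log2 change of -0.19 ± 0.11 (SE; limma adjusted p = 0.457). Without doxycycline replicate 1 the change was -0.06, without doxycycline replicate 2 it was -0.31, and without untreated replicate 2 it was -0.11. Hars and Hars2 lie head to head on chromosome 18, with 74 bases between Hars (36926182 to 36942859) and Hars2 (36942934 to 36952214, mm9). Hars, the cytosolic gene, was at 46.9 and 46.7 FPKM with doxycycline and 47.3 and 49.2 FPKM without. Hars thus stood 9.20 to 12.1 times above its neighbour in the 4 libraries.

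Fars2, for mitochondrial phenylalanyl-tRNA synthetase, was the 1 mitochondrial gene with a positive log2 change, and is named because of that value. It was at 23.4 and 25.7 FPKM with doxycycline and 21.6 and 23.4 FPKM without. The log2 change was 0.12 ± 0.06 (SE; limma adjusted p = 0.426), with 0.11 in pair 1 and 0.13 in pair 2. Farsa and Farsb, the subunits of the cytosolic enzyme, had log2 changes of 0.01 and 0.02. Pars2, for proline, was the least abundant tested gene, at 2.82 and 2.82 FPKM with doxycycline and 2.85 and 2.81 FPKM without.

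The cytosolic set showed no common direction. Of its 20 genes, 12 had a log2 change above 0 and 8 below it, and 7 were higher in both pairs, against 32.8% of all tested genes, with 7 lower in both. The median log2 change was 0.01, with 0.0017 in pair 1 and -0.01 in pair 2. The cytosolic median exceeded the mitochondrial median by 0.06 on the log2 scale, by 0.06 in pair 1 and by 0.08 in pair 2. The spread of these pair differences was an SD of 0.01 over 2 pairs. No test is given for this difference, since the genes were grouped with earlier results of these data known.

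**Figure D4:**
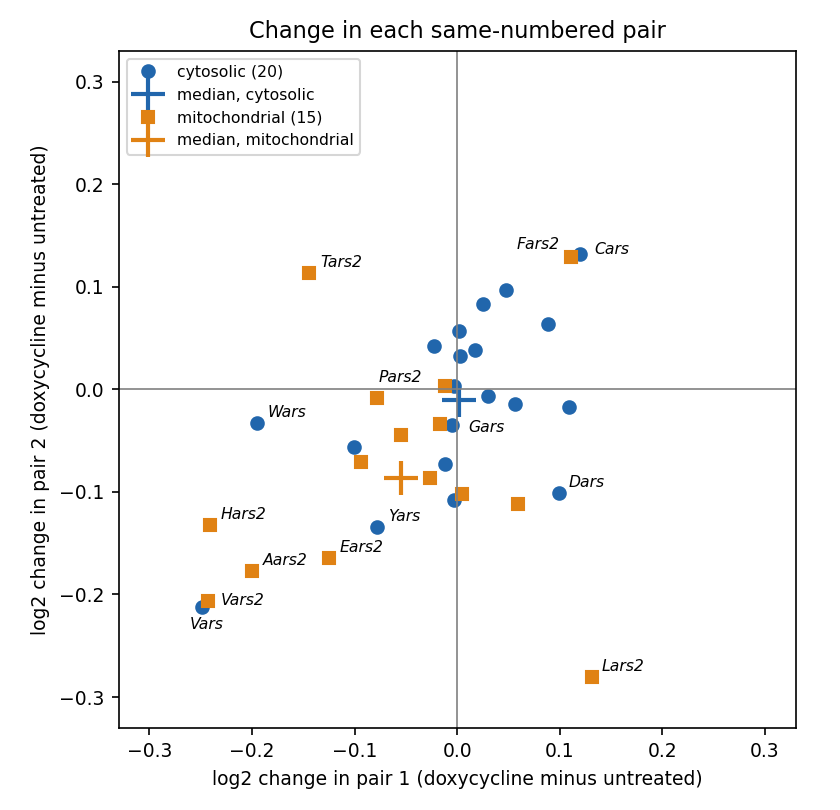
Log2 change in pair 1 (x axis) against pair 2 (y axis), doxycycline minus untreated, for 20 cytosolic and 15 mitochondrial genes, with crosses at the medians. The mitochondrial cross lies at -0.06 and -0.09 and the cytosolic cross near 0. Between the pairs 11 of the 35 genes change sign, 6 cytosolic and 5 mitochondrial, Lars2 and Tars2 among them.

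Set against its partner, the mitochondrial change was below the cytosolic change in 11 of 16 gene pairs with both measured. Precision differed between the sets. The half-width of the deposited bounds in doxycycline replicate 1 had a median of 10.3% of the value for mitochondrial genes and 3.92% for cytosolic genes, and the 95% interval of the log2 change had a median half-width of 0.17 for mitochondrial genes and 0.10 for cytosolic genes. The summed FPKM of the mitochondrial set was 0.989 of its untreated partner in pair 1 and 0.927 in pair 2. Without Lars2 these ratios were 0.952 and 0.969.

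Grouping by function gave small medians as well. The 8 synthetases of the multi-synthetase complex had a median log2 change of 0.02, with 6 above 0, and the 12 cytosolic genes outside it had one of -0.01, with 6 above 0. None of the 8 passed in either fit. By catalytic fold, the 17 tested class I genes had a median of -0.05 and the 17 class II genes one of -0.0044, Eprs being left out because it joins both folds.

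Of 5 scaffolds and carriers that work with the cytosolic enzymes, 4 had higher values in both pairs, against 32.8% of all tested genes. None of the 5 passed in either fit. Aimp1, a scaffold of the complex, was at 79.8 and 84.9 FPKM with doxycycline and 72.4 and 75.1 FPKM without, a log2 change of 0.16 ± 0.05 (SE; limma adjusted p = 0.221, and 0.0622 with the block). Eef1a1, the elongation factor that takes charged tRNA to the ribosome, had a log2 change of 0.14 (adjusted p = 0.319). The scaffold genes Aimp2 and Eef1e1 and the tRNA exporter gene Xpot had changes of 0.04, 0.08 and 0.06.

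Of 6 tested partners of mitochondrial charging, 3 were lower in both pairs, against 34% of all tested genes. None of the 6 passed in either fit. Gatc and Qrsl1, subunits of the amidotransferase that makes mitochondrial glutaminyl-tRNA, had log2 changes of -0.14 and -0.07. Mtfmt, which formylates the initiator methionyl-tRNA, had one of -0.11, and the elongation factor gene Tufm and the initiation factor gene Mtif2 had 0.08 and 0.11. Trnt1, which adds the CCA end to tRNAs, was at -0.06. Tarsl2, a further gene for threonine and no part of the 36, was at a log2 change of -0.04. The 5 genes related to clearing mischarged tRNA or peptidyl-tRNA lay between -0.0068 for Aarsd1 and 0.10 for Ptrh2, and none passed in either fit.

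Many cytosolic synthetase genes are known targets of ATF4, the transcription factor of the amino acid and unfolded protein responses. The 11 cytosolic synthetases commonly listed as its targets had a median log2 change of 0.0001, and the other 9 had one of 0.02. Of 24 tested genes of amino acid supply and the ATF4 response, Ddit4 and Sesn2 rose (limma adjusted p = 0.0291 each) and none fell, against 0.218% of all tested genes called higher and 0.0587% called lower. Ddit4, an inhibitor of mTORC1, was at 48.0 and 63.4 FPKM with doxycycline and 19.8 and 22.5 FPKM without, and Sesn2, a leucine sensor that restrains mTORC1, at 34.4 and 38.6 FPKM with doxycycline and 21.0 and 23.0 FPKM without. Over the alternatives the adjusted p ran from 0.00012 to 0.239 for Ddit4 and from 0.00041 to 0.239 for Sesn2, and neither passed with no filter, without the intensity trend, or without either untreated library, nor did Sesn2 without doxycycline replicate 2. With the block Ddit3 passed too, making 3 of 24 against 2.73% of all tested genes called higher. The log2 change of Ddit3 was 0.31 (limma adjusted p = 0.0243, and 0.111 without the block). The list of these genes was chosen with earlier results of these data known, so the shares do not test it. Ddit3 overlaps the methionine synthetase gene Mars by 68 bases on chromosome 10 (mm9), and Mars had a log2 change of -0.06.

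The other genes of this list did not pass in either fit. The median log2 change of the 24 was 0.0047, with 12 above 0 and 12 below. Atf4 itself was at 73.0 and 80.2 FPKM with doxycycline and 77.3 and 79.0 FPKM without. Asns, the asparagine synthetase gene, was at a log2 change of -0.10 ± 0.08 (SE; limma adjusted p = 0.579).

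Promoters are shown because the letters TGATGNAA, which resemble the composite element bound by C/EBP and ATF factors, were found in the cytosolic set and not in the mitochondrial set. RefSeq (GRCm38.p6) gave promoters, 250 bases before to 50 after the start, for 27 of the 36 genes, 13 cytosolic and 14 mitochondrial. Searched on both strands, the letters stood in 5 of 13 cytosolic promoters (Aars, Gars, Iars, Tars and Yars), in 0 of 14 mitochondrial promoters and in 4.0% of all 32851 promoters of that length. The 5 genes that hold them had log2 changes from -0.11 for Yars to 0.01 for Iars. The ETS-type letters CCGGAAG stood in 5 of 13 cytosolic and 4 of 14 mitochondrial promoters, against 8.9% of all promoters. The palindrome of NRF1 stood in none of the 27, against 1.0% of all promoters. These matches describe letters in a window and not bound sites.

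Aars holds 2 matches to TGATGNAA, in capitals, both on the reverse strand, and Aars2 for the same amino acid holds none. They begin at positions -112 and 10, counted with 1 as the first base after the 250 upstream bases. Yars holds 1 on the forward strand at position 4.
Aars promoter (chr8:111033592-111033891, plus strand): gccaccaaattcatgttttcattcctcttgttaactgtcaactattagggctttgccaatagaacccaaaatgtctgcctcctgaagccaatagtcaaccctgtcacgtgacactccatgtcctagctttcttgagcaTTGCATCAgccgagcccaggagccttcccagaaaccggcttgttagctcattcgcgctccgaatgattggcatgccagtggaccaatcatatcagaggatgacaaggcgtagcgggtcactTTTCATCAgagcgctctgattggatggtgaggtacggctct
Aars2 promoter (chr17:45506582-45506881, plus strand): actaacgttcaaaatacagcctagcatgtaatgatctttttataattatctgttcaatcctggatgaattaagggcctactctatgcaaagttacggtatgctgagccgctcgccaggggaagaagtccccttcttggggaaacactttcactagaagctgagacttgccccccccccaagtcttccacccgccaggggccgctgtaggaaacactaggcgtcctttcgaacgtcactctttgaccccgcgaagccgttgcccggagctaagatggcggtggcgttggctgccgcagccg
Yars promoter (chr4:129189653-129189952, plus strand): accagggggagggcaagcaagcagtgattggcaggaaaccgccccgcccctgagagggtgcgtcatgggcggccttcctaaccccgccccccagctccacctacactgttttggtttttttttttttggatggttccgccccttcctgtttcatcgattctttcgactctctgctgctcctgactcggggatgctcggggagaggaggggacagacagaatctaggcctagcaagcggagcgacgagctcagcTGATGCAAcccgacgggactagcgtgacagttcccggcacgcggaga

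Aars was at 35.2 and 35.3 FPKM with doxycycline and 37.8 and 36.8 FPKM without, a log2 change of -0.08 ± 0.04 (SE; limma adjusted p = 0.415), and Aars2, without a match, had the larger change given above.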

How the data were processed

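Groups follow the treatment label, 2 libraries with doxycycline and 2 untreated. Total RNA was extracted with TRIzol and read on a HiSeq4000, according to the labels. The submitters' processing notes list TopHat2 2.0.6, Cufflinks 2.0.2, Cuffdiff and mm9, with no role or order. The authors deposited FPKM per gene, 1 table per library of 23021 lines, per the file headers. The sources used here name no annotation, strand setting or further scaling. Without a strand setting, reads of overlapping genes cannot be told apart. Values were joined by symbol and summed over lines sharing one (259 symbols, no synthetase gene). Status was OK for all 36 in the 1 table that gives it. Relative depth came from genes under 0.1 FPKM, whose ratios fell within 1% of ratios of whole numbers up to 6 for 74.2% to 77.3% of genes.

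The test was limma 3.58.1 (R 4.3.3) on log2(FPKM + 1), two-sided, with an intensity trend, for symbols with a mean of at least 1 FPKM. It was tested on simulated data. Residual degrees of freedom were 2, and 1 with the replicate block, to which moderation added 4.23 and 6.21. The design names 2 clones per condition, so libraries with the same number were treated as coming from 1 clone, although no title says so. Over genes, their deviations from the group means had a correlation of 0.215. A p-value covers only the spread of these libraries, which may be technical. Folds are ratios of mean FPKM. Genes described in full are those past the threshold in either fit and, in each set, the 4 largest changes and the most and least abundant gene. The members and lists were chosen with earlier results of these data known. Alternatives changed the pseudocount, filter, scaling, moderation, treatment of repeated symbols, block and library set. Promoters and microRNAs are RefSeq GRCm38.p6 and 3' UTRs GENCODE M21, used for no coordinates of the mm9 files. Python 3.11.15 was used for the summaries.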

Additional observations from a re-analysis of the deposited data

How the results depend on the processing

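Over the 14 alternatives, no mitochondrial synthetase gene passed, and among cytosolic genes the count was 0 except with the replicate block, where it was 1 (Vars, log2 change -0.23, adjusted p = 0.0215, against 0.0215 to 0.520 over the alternatives). The count of all tested genes past the threshold was 33 and moved to 1 with no filter, 88 with a filter of 5 FPKM, 2 without the intensity trend and 441 with the block, and ran from 2 to 60 when single libraries were left out. It was 60 when doxycycline replicate 1 was left out, 5 when either doxycycline replicate 2 or untreated replicate 1 was, and 2 when untreated replicate 2 was. The cause was not tested. The mitochondrial median was below 0 under all 14 alternatives and ran from -0.079 to -0.035 with single libraries left out. The cytosolic median was -0.0048 with quantile normalization and ran from 0.00072 to 0.022 with single libraries left out. The difference of the medians ran from 0.044, lacking doxycycline replicate 2, to 0.101, lacking untreated replicate 2. Of 11 genes described in full, 3 changed sign when a library was left out, and none of these was called. Gars ran from -0.064 to 0.023 and was above 0 lacking doxycycline replicate 1 (0.0082) or untreated replicate 2. Lars2 ran from -0.18 to 0.031 and was above 0 lacking doxycycline replicate 2 (0.025) or untreated replicate 2. Pars2 ran from -0.011 to 0.0021, and was above 0 lacking untreated replicate 1. Apart from Vars, the block changed no call among the 11. With single libraries left out, Hars2 ran from -0.31 to -0.06, Wars from -0.18 to -0.05 and Ears2 from -0.21 to -0.08, all below 0. What depth in reads limits is unknown, and Wars2 was below the filter.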
